A study of Homo sapiens with 12 samples.

Results

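The HOX genes of the 4 human clusters were taken as the count rows whose symbol is HOXA, HOXB, HOXC or HOXD followed only by a number. The rule found 39 protein-coding genes among 60676 gene rows: 11 HOXA genes on chromosome 7, 10 HOXB genes on chromosome 17, 9 HOXC genes on chromosome 12 and 9 HOXD genes on chromosome 2. Antisense genes of the clusters were not members. RNA was taken from A549, a long-used line of human lung adenocarcinoma cells, in 12 libraries, with 3 biological replicates in each of 4 groups. The groups were cells transduced with LETS1 (a long non-coding RNA) and given TGF-β, cells with LETS1 in ligand buffer, cells with the empty vector (Co.vec) given TGF-β, and cells with the empty vector in ligand buffer. TGF-β was given at 5 ng/mL, and both ligand and buffer were left on for 4 h. All 4 groups carried a lentiviral pCDH-EF1a-PURO construct and had been through puromycin selection at 1 ng/mL, so the constructs were driven by a constitutive promoter in a selected population. The labels do not say whether replicates came from separate transductions, so p values measure only the spread between these libraries. The level of LETS1 itself was not analysed here.

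HOX genes encode homeodomain transcription factors that give cells a position along the body axis. They lie in 4 clusters that arose by duplication, and genes with the same number in different clusters are called a paralog group. Low numbers lie at the 3′ end of a cluster and are used towards the head, and high numbers lie at the 5′ end and are used towards the tail and the limb tips. HOX proteins bind DNA together with TALE cofactors (PBX and MEIS proteins), retinoic acid opens the clusters from the 3′ end, Polycomb proteins keep them silent and Trithorax proteins keep them active. In the developing mouse lung the genes of the middle of the clusters are used, among them HOXA5 and HOXB5, which act in airway and alveolar formation.

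Each library held 19705135 to 20351043 fragments in genes, of which 2877 to 3353 fell in HOX genes, or 146 to 170 CPM (counts per 1000000 gene fragments). Of 6 TGF-β response genes, 6 rose with the ligand in each population, for example PMEPA1 by 2.18 in LETS1 cells and by 2.61 in Co.vec cells on the log2 scale. The epithelial label fitted KRT8 (a keratin), which averaged 4340 to 6433 CPM over the 4 groups. Library sizes were TMM-scaled in this value, as in all values below. Of the other epithelial markers, EPCAM averaged only 6.79 to 7.89 CPM. CDH1 averaged 71.3 to 97.6 CPM, lower with TGF-β than in buffer in each population. The lung lineage genes SFTPB, SFTPC and NKX2-1 failed the filter on low counts, with group means of at most 0.288 CPM. Of 20 markers of other cell types 7 passed the filter, and the list summed to 145 to 162 CPM in LETS1 cells given TGF-β, 29.4 to 35.9 CPM in LETS1 cells in buffer, 130 to 138 CPM in Co.vec cells given TGF-β and 23.4 to 24.7 CPM in Co.vec cells in buffer. Most of that sum was COL1A1, with means of 142, 19.9, 126 and 13.3 CPM in the same order of groups, and LUM had 1.66, 1.14, 0.324 and 0.248 CPM, PDGFRA 0.321, 0.163, 0.764 and 0.182 CPM, and CD14 1.61, 1.84, 1.41 and 2.19 CPM. LUM was higher in LETS1 cells, by 2.34 with TGF-β and 2.17 in buffer on the log2 scale (edgeR adjusted p = 2.3e-06 and 5.5e-05). PDGFRA was lower in LETS1 cells with TGF-β, at a log2 of -1.24 (edgeR adjusted p = 0.0452), and rose by 2.03 with TGF-β in Co.vec cells (edgeR adjusted p = 0.000705). PTPRC and CD3E stayed at or below 0.0337 CPM in every group. Of the same list, COL1A2, COL3A1 and DCN had group means of at most 0.0988, 0.163 and 0.0651 CPM. ACTA2 averaged 3.54, 4.33, 3.14 and 3.99 CPM in the order of groups used above, with lower means with TGF-β than in buffer. In LETS1 cells this difference in ACTA2 was not called (log2 -0.29, edgeR adjusted p = 0.152). The part of these markers in the results below was not tested, and in bulk RNA fewer cells of a type and less RNA per cell cannot be told apart.

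Genes of the middle of the HOXB and HOXC clusters dominated the HOX RNA of A549 cells. Levels between genes are given as FPKM, CPM per kilobase of exon, with exon lengths from GENCODE 29. HOXB7 led with a mean of 21.2 FPKM over the 12 libraries and a range of 19.0 to 24.8 FPKM. Among the 29 members past the filter on low counts it was the only one whose lowest library lay above the highest library of the next gene in the order. HOXC9 followed at 6.52 FPKM, HOXB9 at 5.91 FPKM, HOXB8 at 5.20 FPKM, HOXC8 at 3.84 FPKM and HOXB5 at 2.38 FPKM. The ranges of these 5 genes overlapped from each gene to the next, from 4.78 to 7.59 FPKM for HOXC9, 3.63 to 8.59 FPKM for HOXB9, 3.73 to 6.99 FPKM for HOXB8, 2.56 to 5.21 FPKM for HOXC8 and 1.72 to 3.29 FPKM for HOXB5. These ranges pool the 4 groups, and the highest HOXB5 library lay below the lowest libraries of HOXC9, HOXB9 and HOXB8.

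**Figure D1:**
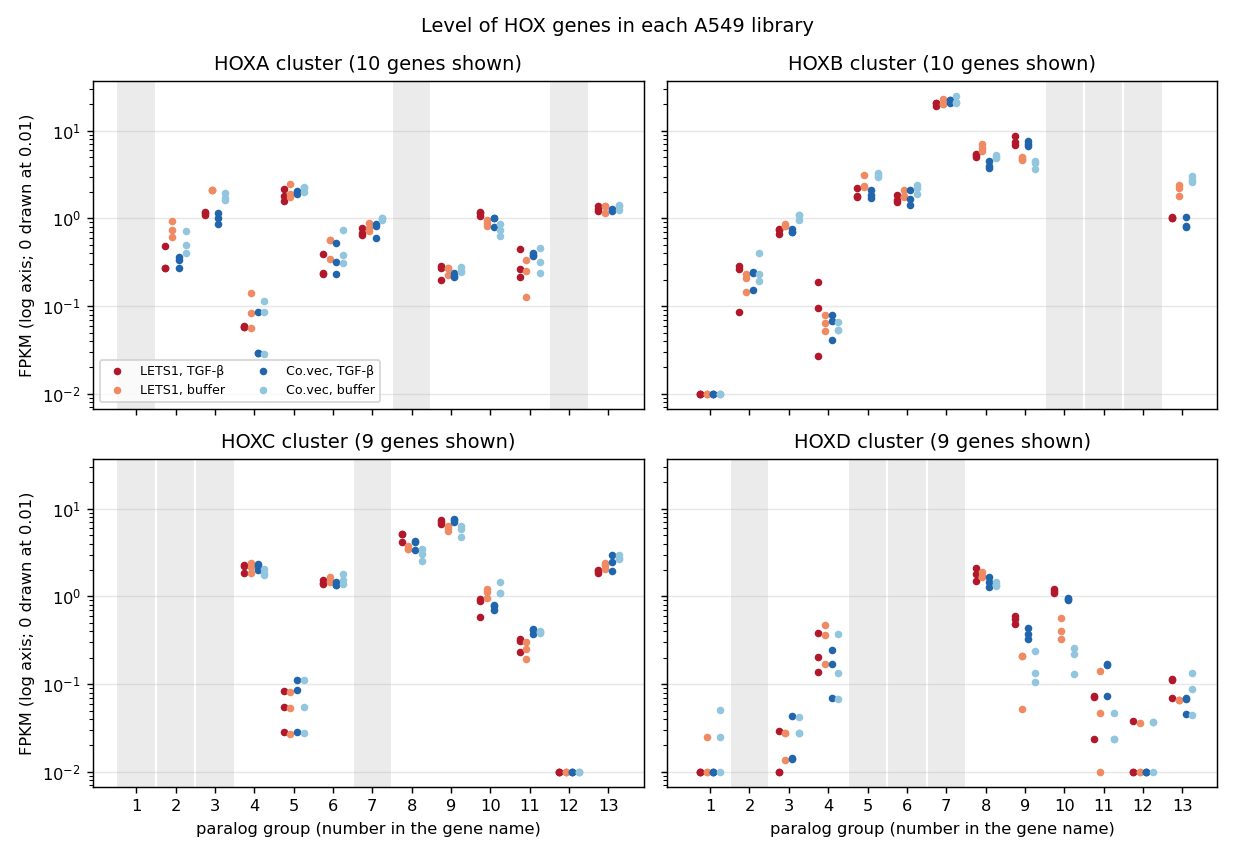
FPKM of 38 HOX genes (log axis, with 0 drawn at 0.01) against their paralog group, with 1 panel per cluster and 1 point per library; grey columns mark paralog groups with no gene shown. HOXB7 lies at 19.0 to 24.8 FPKM, above every other member in every library, and most HOXD genes other than HOXD8 lie under 1 FPKM.

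A mean of at least 1 FPKM was reached by 16 of the 39 members. These were 6 HOXB genes (HOXB5, HOXB6, HOXB7, HOXB8, HOXB9 and HOXB13), 5 HOXC genes (HOXC4, HOXC6, HOXC8, HOXC9 and HOXC13), 1 HOXD gene (HOXD8) and HOXA genes that include HOXA3, HOXA5 and HOXA13. Paralog group 13, at the 5′ end, was present in 3 clusters, with HOXC13 (a regulator of hair keratins) at 2.35 FPKM, HOXB13 (a caudal and prostate gene) at 1.71 FPKM and HOXA13 (a gene of the limb tips) at 1.30 FPKM. HOXD13, whose mutations change the fingers, had 2 to 6 fragments per library. HOXA5, the lung gene of the HOXA cluster, averaged 2.01 FPKM, the highest of that cluster by whole exon length. With exon bases of no other gene as the length, HOXA7 stood above it at 2.16 FPKM.

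As summed FPKM, the HOXB cluster held more than the other clusters together in every library, with 54.2% to 59.0% of all HOX FPKM. HOXC held 22.8% to 27.9%, HOXA 12.3% to 15.9% and HOXD 2.83% to 5.63%. The HOXD sum was 3.91 ± 0.144 FPKM in LETS1 cells given TGF-β and 2.85 ± 0.241 FPKM in LETS1 cells in buffer (SD, n = 3 each). In Co.vec cells it was 3.17 ± 0.223 FPKM with TGF-β and 2.13 ± 0.271 FPKM in buffer (SD, n = 3 each). Libraries with TGF-β did not overlap those in buffer within either population, and sums over a cluster were not tested. Within the HOXD sum, HOXD10 averaged 1.15 FPKM with TGF-β against 0.430 FPKM in buffer in LETS1 cells, and 0.935 against 0.203 FPKM in Co.vec cells. HOXD9 averaged 0.543 against 0.157 FPKM and 0.382 against 0.160 FPKM in the same order. HOXD8, the highest HOXD gene, averaged 1.80 against 1.76 FPKM and 1.47 against 1.37 FPKM. The HOXB sum was 38.6 ± 2.02 FPKM in LETS1 cells given TGF-β, 39.8 ± 1.68 FPKM in LETS1 cells in buffer, 38.5 ± 0.166 FPKM in Co.vec cells given TGF-β and 40.9 ± 2.86 FPKM in Co.vec cells in buffer. HOXB libraries overlapped between the LETS1 groups, whereas all 3 Co.vec libraries with TGF-β lay below all 3 in buffer.

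The filter on low counts was passed by 29 members: 10 HOXA, 8 HOXB, 7 HOXC and 4 HOXD genes. The 10 that failed were HOXA4, HOXB1, HOXB4, HOXC5, HOXC12, HOXD1, HOXD3, HOXD11, HOXD12 and HOXD13. Among them HOXB4 reached the highest count, 14 fragments in 1 library, and HOXB1 and HOXC12 had 0 fragments in all 12. At 0 fragments in a single library, a level of up to 3 fragments is not excluded by counting error. The limit for 0 fragments in all 12 libraries is lower. HOXA6, HOXA11, HOXB2, HOXD4, HOXD9 and HOXD10 passed although some libraries lay under the filter's limit of 0.5003 CPM.

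Exons shared with other genes limit some of these levels, because the 10.1% to 10.9% of fragments that fell in several genes stand in a row of their own and in no gene, and whether the counting used strand is not given in the sources used here. By GENCODE 29, other genes cover 62.5% of the exon bases of HOXA7 (through the antisense gene HOXA-AS3) and 33.0% of those of HOXB6 (through HOXB3 and HOXB-AS3). For HOXD4 the share is 80.5%, but through a gene whose GENCODE 29 id has no row in the count table. The annotation used for counting is not given, so whether this overlap took fragments from HOXD4 is not known. With exon bases of no other gene as the length, 20 members reached 1 FPKM, HOXA7 moved from rank 20 to rank 10 and HOXB6 from rank 10 to rank 6. The 20 include HOXD4, at 1.19 FPKM against 0.233 FPKM by whole exon length, a rise that holds only if its overlap took fragments. HOXB7, HOXB8, HOXB9 and HOXC8 share no exon bases with another gene, so their levels did not move.

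With TGF-β, 6 of the 29 tested members rose in LETS1 cells (20.7%, against 19.7% of the 16192 genes tested) and 5 fell (17.2%, against 19.1%). In Co.vec cells 5 rose (17.2%, against 21.1%) and 7 fell (24.1%, against 18.6%). HOXD9 is among the rises in each population, although its buffer libraries all lay under the filter's limit and it had to differ. HOXB9, HOXC8, HOXC9, HOXD9 and HOXD10 rose in both populations, and HOXA2, HOXA3, HOXB5, HOXB8 and HOXB13 fell in both. HOXA10 passed the test as higher in LETS1 cells, and HOXB3 and HOXC10 as lower in Co.vec cells. The median log2 fold change of the tested members was -0.06 in LETS1 cells and -0.17 in Co.vec cells, and that of all genes was -0.02 in each.

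**Figure D2:**
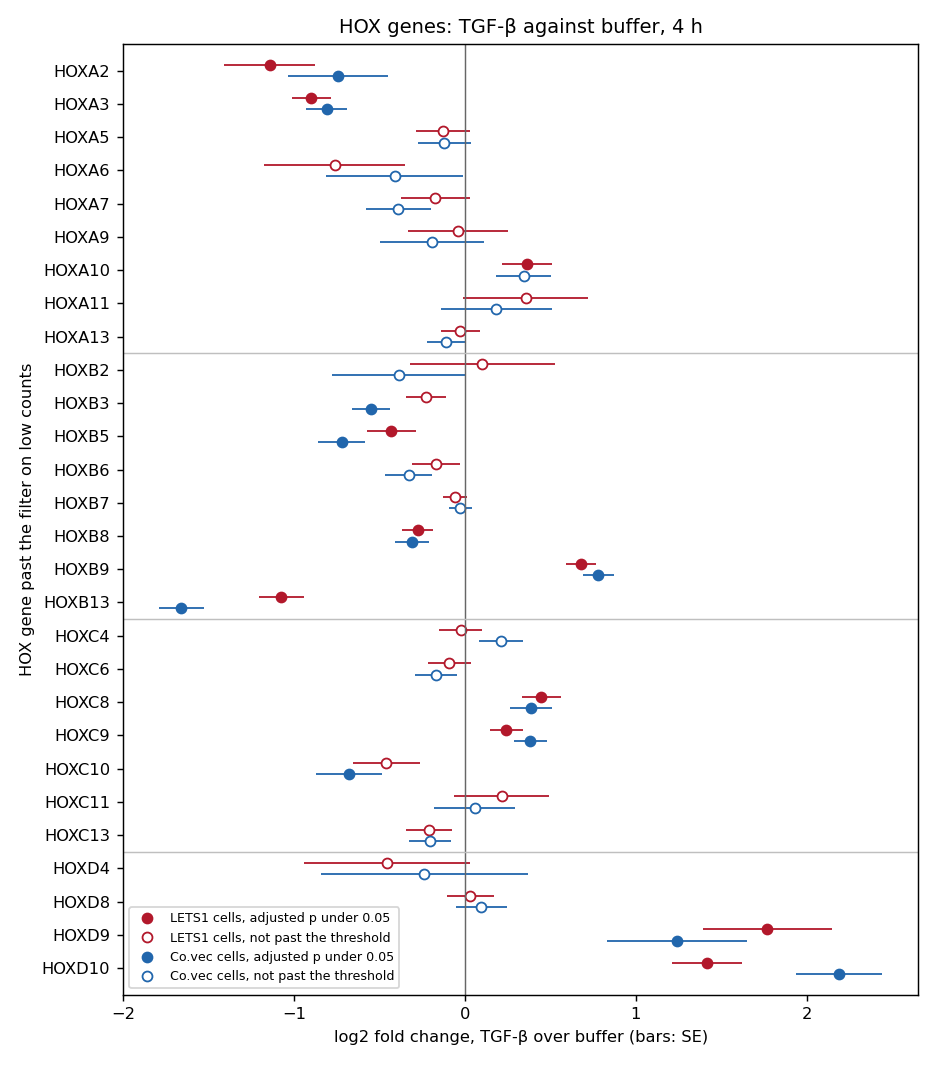
Log2 fold change of TGF-β over buffer at 4 h for 28 of the 29 HOX genes past the filter, in LETS1 cells (red) and Co.vec cells (blue), with bars of 1 SE; filled points have an edgeR adjusted p under 0.05. HOXD10, HOXD9 and HOXB9 lie farthest to the right, and HOXB13, HOXA2 and HOXA3 farthest to the left among filled points.

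HOXD10, which patterns the lumbar spinal cord and the limb in mice, rose from a low level. It had 3.23, 3.11 and 2.95 CPM in LETS1 cells given TGF-β, against 1.51, 0.883 and 1.07 CPM in LETS1 cells in buffer. Co.vec cells had 2.52, 2.47 and 2.56 CPM with TGF-β, against 0.593, 0.347 and 0.701 CPM in buffer. All 6 libraries with TGF-β lay above all 6 in buffer. HOXD10 was 2.67-fold higher with TGF-β in LETS1 cells (log2 1.41, SE 0.20, edgeR adjusted p = 3.4e-07) and 4.56-fold higher in Co.vec cells (log2 2.19, SE 0.25, edgeR adjusted p = 2.4e-09). HOXD10 shares 16.8% of its exon bases with HOXD11, its 5′ neighbour, which had 0 to 7 fragments per library.

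HOXD9, the next gene towards the 3′ end and a limb and spinal cord gene in mice, moved the same way at a lower level. It had 1.03, 0.903 and 1.12 CPM in LETS1 cells given TGF-β, against 0.0976, 0.393 and 0.391 CPM in LETS1 cells in buffer. Co.vec cells had 0.822, 0.618 and 0.703 CPM with TGF-β, against 0.198, 0.248 and 0.451 CPM in buffer. None of the 6 buffer libraries reached the filter's limit, so HOXD9 entered the test only through its TGF-β libraries and had to differ. The log2 fold change was 1.77 in LETS1 cells (SE 0.38, edgeR adjusted p = 0.000214) and 1.24 in Co.vec cells (SE 0.41, edgeR adjusted p = 0.0138). In Co.vec cells the call ended without TGF-β replicate 1 (adjusted p = 0.0550), buffer replicate 1 (adjusted p = 0.0719) or buffer replicate 2 (adjusted p = 0.0561) and under DESeq2 (adjusted p = 0.0671), within a range of 0.00727 to 0.0719 over the alternatives.

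HOXB9, a thoracic gene also used in mammary development in mice, came next to HOXC9 in level among the members that rose. Its values were 17.8, 22.2 and 19.4 CPM in LETS1 cells given TGF-β, against 11.96, 12.8 and 12.4 CPM in LETS1 cells in buffer. With TGF-β, Co.vec cells had 18.1, 17.3 and 19.4 CPM, against 11.6, 9.37 and 10.9 CPM in buffer. Again all TGF-β libraries lay above all buffer libraries. The log2 fold change was 0.68 in LETS1 cells (SE 0.09, edgeR adjusted p = 3.2e-08) and 0.78 in Co.vec cells (SE 0.09, edgeR adjusted p = 3.2e-09). With no exon bases shared, the value does not depend on how overlaps were counted.

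HOXC8 and HOXC9 lie next to each other and set brachial and thoracic motor neuron identity in mice. HOXC8 had 9.84, 7.93 and 9.61 CPM in LETS1 cells given TGF-β, against 6.49, 7.02 and 6.54 CPM in LETS1 cells in buffer. Co.vec cells held 7.91, 6.39 and 8.13 CPM of HOXC8 with TGF-β, against 4.84, 5.75 and 6.56 CPM in buffer. The LETS1 groups did not overlap, whereas in Co.vec cells 1 TGF-β library lay under the highest buffer library. The HOXC8 log2 fold change was 0.45 in LETS1 cells (SE 0.12, edgeR adjusted p = 0.0018) and 0.39 in Co.vec cells (SE 0.12, edgeR adjusted p = 0.0109). In Co.vec cells the HOXC8 call ended without TGF-β replicate 3 (adjusted p = 0.0561) or buffer replicate 1 (adjusted p = 0.0921), within a range of 0.0025 to 0.0921.

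HOXC9 had 11.2, 12.5 and 11.9 CPM in LETS1 cells given TGF-β, against 10.6, 10.2 and 9.33 CPM in LETS1 cells in buffer. In Co.vec cells it had 12.7, 11.9 and 12.4 CPM with TGF-β, against 9.83, 8.03 and 10.6 CPM in buffer. Neither pair of groups overlapped, though the gap in LETS1 cells was small. The log2 fold change was 0.24 in LETS1 cells (SE 0.10, edgeR adjusted p = 0.0435) and 0.38 in Co.vec cells (SE 0.10, edgeR adjusted p = 0.00144). The LETS1 call ended without LETS1 TGF-β replicate 2 (adjusted p = 0.154) or 3 (0.0804), without LETS1 buffer replicate 2 (0.0659) or 3 (0.178), and under DESeq2 (0.109), within a range of 0.0277 to 0.178. The Co.vec call held in every alternative run, with adjusted p from 0.00049 to 0.0283.

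HOXA10, needed in the mouse uterus, was the sole HOXA gene called higher. LETS1 cells had 4.36, 3.96 and 4.32 CPM with TGF-β, against 3.52, 3.29 and 3.03 CPM in buffer. Co.vec cells had 2.93, 3.71 and 3.76 CPM with TGF-β, against 3.16, 2.33 and 2.71 CPM in buffer. The LETS1 groups were apart and the Co.vec groups overlapped. With TGF-β, the log2 fold change was 0.36 in LETS1 cells (SE 0.15, edgeR adjusted p = 0.0488) and 0.34 in Co.vec cells (SE 0.16, edgeR adjusted p = 0.0842). The LETS1 call stood at the threshold: it ended without any 1 of the 6 LETS1 libraries or without Co.vec buffer replicate 3 (adjusted p = 0.0505 to 0.155), under DESeq2 (0.167) and without the filter on low counts (0.0669). In Co.vec cells HOXA10 passed without TGF-β replicate 1 (adjusted p = 0.0355) or buffer replicate 1 (0.0412), within a range of 0.0355 to 0.296.

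HOXB13 fell in both populations. It had 3.54, 3.61 and 3.46 CPM in LETS1 cells given TGF-β, against 8.35, 6.23 and 7.76 CPM in LETS1 cells in buffer. Co.vec cells had 2.77, 3.56 and 2.81 CPM with TGF-β, against 9.39, 9.02 and 10.5 CPM in buffer. All 6 TGF-β libraries lay below all 6 buffer libraries. HOXB13 was 2.11-fold lower with TGF-β in LETS1 cells (log2 -1.07, SE 0.13, edgeR adjusted p = 1.2e-08) and 3.16-fold lower in Co.vec cells (log2 -1.66, SE 0.13, edgeR adjusted p = 1.2e-13). TTLL6, a tubulin glutamylase gene 33057 bases beyond HOXB13 at the 5′ end of the cluster, also fell, by 1.28 in LETS1 cells and by 1.06 in Co.vec cells on the log2 scale (edgeR adjusted p = 6.5e-06 and 4.1e-05).

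**Figure D3:**
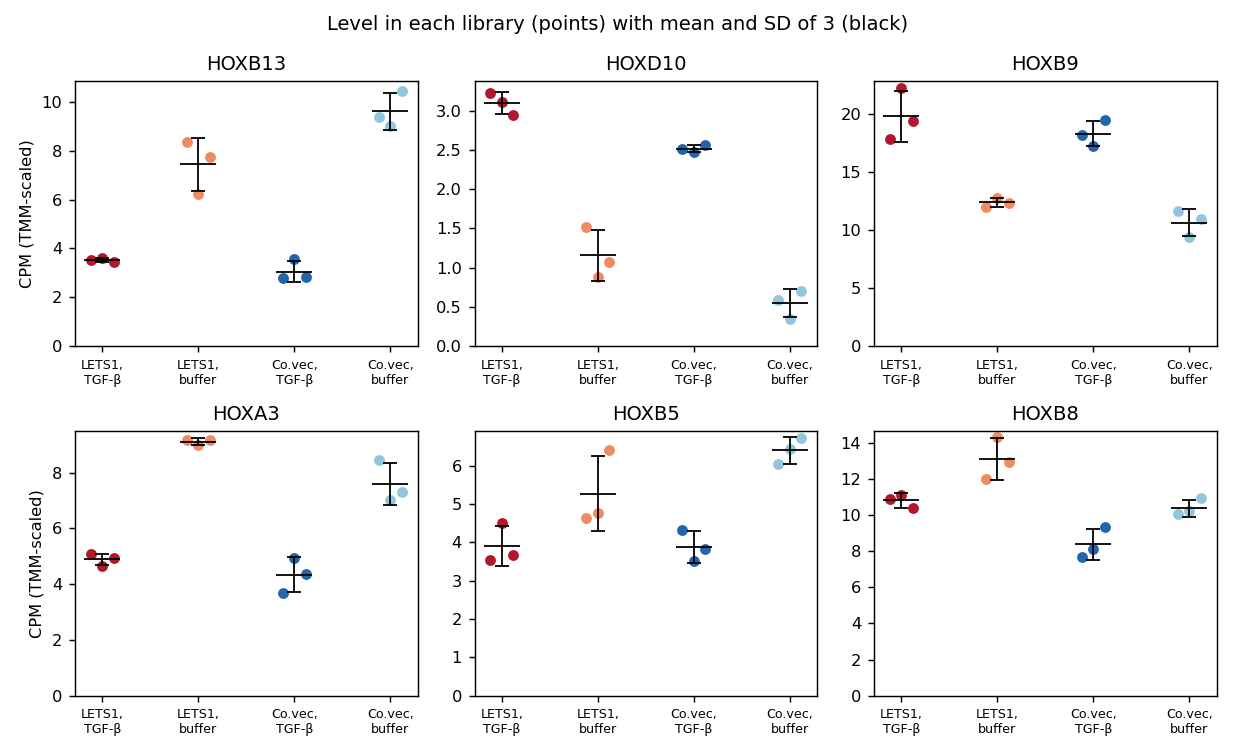
CPM in each library for 6 HOX genes, from left to right LETS1 with TGF-β, LETS1 in buffer, Co.vec with TGF-β and Co.vec in buffer; coloured points are libraries and black bars are the mean and SD of 3. HOXB13, HOXA3, HOXB5 and HOXB8 are lower with TGF-β than in buffer in both populations, and HOXD10 and HOXB9 are higher.

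HOXA2 and HOXA3 are head and neck genes: HOXA2 sets the identity of the second pharyngeal arch and HOXA3 is needed for thymus and parathyroid in mice. HOXA3 had 5.07, 4.67 and 4.93 CPM in LETS1 cells given TGF-β, against 9.18, 8.98 and 9.18 CPM in LETS1 cells in buffer. In Co.vec cells HOXA3 had 3.70, 4.95 and 4.37 CPM with TGF-β, against 8.45, 7.04 and 7.31 CPM in buffer. All TGF-β libraries lay below all buffer libraries. The HOXA3 log2 fold change was -0.90 in LETS1 cells (SE 0.11, edgeR adjusted p = 2.4e-08) and -0.81 in Co.vec cells (SE 0.12, edgeR adjusted p = 6.7e-07). HOXA3 shares 17.9% of its exon bases with other genes, 1 of them the antisense gene HOXA-AS2, which fell by 0.83 in LETS1 cells (edgeR adjusted p = 3.2e-05) and by 0.49 in Co.vec cells (edgeR adjusted p = 0.0109). Without knowledge of the strand setting, reads of HOXA3 and HOXA-AS2 cannot be told apart in the shared bases.

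HOXA2 had 0.666, 1.20 and 0.661 CPM in LETS1 cells given TGF-β, against 1.51, 2.31 and 1.81 CPM in LETS1 cells in buffer. Co.vec cells had 0.822, 0.670 and 0.903 CPM of HOXA2 with TGF-β, against 1.24, 1.78 and 1.00 CPM in buffer. TGF-β groups lay below buffer groups in each population, with the smaller gap in Co.vec cells. The HOXA2 log2 fold change was -1.14 in LETS1 cells (SE 0.27, edgeR adjusted p = 0.000636) and -0.74 in Co.vec cells (SE 0.29, edgeR adjusted p = 0.0393). The Co.vec call ended without TGF-β replicate 1 (adjusted p = 0.0769) or 2 (0.135), without buffer replicate 2 (0.286, with a log2 fold change of -0.47), under DESeq2 (0.132) and without the filter on low counts (0.0612), within a range of 0.0193 to 0.286.

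Upstream sequence is shown for these 2 members, which moved together and lie in 1 cluster. Windows of HOXD10 and HOXA10 were also drawn up and are not shown. RefSeq promoter windows of 250 bases before a start (GRCh38.p14) were at hand for 20 members. Searched on both strands were CAGAC and GGCGCC, which SMAD proteins bind, the SMAD palindrome GTCTAGAC, the AP-1 site TGANTCA and the joint HOX and PBX site TGATNNAT. They occur in 38.0%, 16.4%, 0.183%, 6.59% and 6.49% of 34941 windows of the same length, in that order. The window of HOXD10, which rose with TGF-β, held 0 matches of any of these motifs. By GENCODE 29 all 250 bases of that window lie inside HOXD10, 199 of them in its exons. The HOXA10 window farthest upstream, which GENCODE 29 places wholly in HOXA10 exons, also held 0. The other HOXA10 window held 2 GGCGCC. Not every HOXA3 window held a match. The first sequence is the HOXA3 window farthest upstream of its 7 starts, chr7:27152584-27152833 on the minus strand, outside the exons of HOXA3 and inside an exon of HOXA-AS3. The second is a stretch of 30 bases before the HOXA2 start, chr7:27102775-27102804 on the minus strand, which GENCODE 29 places in the first exon of HOXA2. Capitals mark motif matches, which did not overlap: a reversed CAGAC and a GGCGCC for HOXA3, and a reversed TGATNNAT and a CAGAC for HOXA2.
HOXA3: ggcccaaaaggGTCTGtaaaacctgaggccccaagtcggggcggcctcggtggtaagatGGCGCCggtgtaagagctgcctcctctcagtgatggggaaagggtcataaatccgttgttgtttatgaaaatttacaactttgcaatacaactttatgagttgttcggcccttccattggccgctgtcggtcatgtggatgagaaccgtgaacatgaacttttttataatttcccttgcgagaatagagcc
HOXA2: tttttggATCAATCAaaCAGACagtggctt
A match describes letters only and marks no bound site.

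HOXB5, HOXB3 and HOXB8 fell less. HOXB5, which acts in mouse airway branching, had 3.54, 4.51 and 3.66 CPM in LETS1 cells given TGF-β, against 4.64, 4.76 and 6.40 CPM in LETS1 cells in buffer. Co.vec cells had 4.32, 3.50 and 3.81 CPM of HOXB5 with TGF-β, against 6.03, 6.44 and 6.71 CPM in buffer. The Co.vec groups stood well apart, and the LETS1 groups were separated by a small gap. The log2 fold change of HOXB5 was -0.43 in LETS1 cells (SE 0.14, edgeR adjusted p = 0.0143) and -0.72 in Co.vec cells (SE 0.14, edgeR adjusted p = 4.5e-05). In LETS1 cells the call ended without TGF-β replicate 1 (adjusted p = 0.0786) or 3 (0.0625), without buffer replicate 3 (0.186, log2 fold change -0.27), and under DESeq2 (0.0736), within a range of 0.00732 to 0.186.

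HOXB3, a hindbrain and thyroid gene in mice, had 4.97, 5.57 and 5.54 CPM in LETS1 cells given TGF-β, against 6.15, 6.18 and 6.495 CPM in LETS1 cells in buffer. Co.vec cells had 5.65, 5.20 and 5.22 CPM of HOXB3 with TGF-β, against 7.17, 8.23 and 8.12 CPM in buffer. Neither pair overlapped. Between TGF-β and buffer the log2 fold change was -0.55 in Co.vec cells (SE 0.11, edgeR adjusted p = 0.000102), and in LETS1 cells it was -0.23 (SE 0.11, edgeR adjusted p = 0.118). HOXB3 shares 13.2% of its exon bases, in part with HOXB6 and HOXB4 on the same strand.

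HOXB8, known in mice from blood-derived microglia, had 10.9, 11.1 and 10.4 CPM in LETS1 cells given TGF-β, against 12.01, 14.3 and 12.9 CPM in LETS1 cells in buffer. Co.vec cells had 7.66, 8.14 and 9.34 CPM of HOXB8 with TGF-β, against 10.0, 10.2 and 10.9 CPM in buffer. The groups did not overlap in either population. For the ligand, the log2 fold change was -0.28 in LETS1 cells (SE 0.09, edgeR adjusted p = 0.0146) and -0.31 in Co.vec cells (SE 0.10, edgeR adjusted p = 0.0119). In LETS1 cells the call ended without TGF-β replicate 3 (adjusted p = 0.0642) or buffer replicate 2 (0.133), under DESeq2 (0.0807) and without the filter on low counts (0.0526), within a range of 0.00844 to 0.133. In Co.vec cells it ended without TGF-β replicate 1 (adjusted p = 0.0931) or buffer replicate 3 (0.0649), within a range of 0.00438 to 0.0931. HOXB8 thus fell beside HOXB9, its 5′ neighbour, which rose.

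HOXC10, a lumbar and hindlimb gene in mice, was the only HOXC member called lower. LETS1 cells had 2.05, 2.16 and 1.37 CPM with TGF-β, against 2.64, 2.80 and 2.25 CPM in buffer. Co.vec cells had 1.64, 1.85 and 1.81 CPM with TGF-β, against 2.57, 2.53 and 3.41 CPM in buffer. Both pairs of groups were apart. Relative to buffer the log2 fold change was -0.68 in Co.vec cells (SE 0.19, edgeR adjusted p = 0.00452), and in LETS1 cells it was -0.46 (SE 0.19, edgeR adjusted p = 0.0580). The Co.vec call ended without buffer replicate 3 (adjusted p = 0.0587, range 0.0038 to 0.0587), and HOXC10 passed in LETS1 cells without TGF-β replicate 2 (adjusted p = 0.0419) or buffer replicate 3 (0.0452, range 0.0419 to 0.318).

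HOXB7, the most abundant member, was not called in any comparison. It had 31.2, 31.7 and 29.1 CPM in LETS1 cells given TGF-β, against 30.7, 34.7 and 30.4 CPM in LETS1 cells in buffer. Co.vec cells had 34.4, 34.2 and 31.4 CPM with TGF-β, against 31.5, 32.3 and 38.0 CPM in buffer. The groups overlapped in both populations. With TGF-β, the log2 fold change was -0.06 in LETS1 cells (SE 0.07, edgeR adjusted p = 0.532) and -0.03 in Co.vec cells (SE 0.07, edgeR adjusted p = 0.794). Of its neighbours in number, HOXB6 was not called and HOXB8 fell, and HOXB9, the next after HOXB8, rose.

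By position, the called rises with TGF-β all lay in paralog groups 8 to 10, where 10 members were tested: 6 rose and 1 fell in LETS1 cells, and 5 rose and 2 fell in Co.vec cells, with HOXD9 among the rises. Of all genes tested, 19.7% rose and 19.1% fell in LETS1 cells, and 21.1% rose and 18.6% fell in Co.vec cells. In paralog groups 1 to 7, with 14 members tested, 0 rose and 3 fell in LETS1 cells, and 0 rose and 4 fell in Co.vec cells. In paralog groups 11 to 13, with 5 members tested, HOXB13 fell in both populations and the other 4 did not pass the test. The median log2 fold change of groups 8 to 10 was 0.30 in LETS1 cells and 0.36 in Co.vec cells, against -0.17 and -0.36 for groups 1 to 7. The bounds of these groups were drawn after the values were seen, so the split is a description with no test. By cluster, HOXD had 2 members higher (HOXD9 and HOXD10) and 0 lower of 4 tested in each population. HOXD9 entered the test only through its TGF-β libraries and had to differ, and apart from it only HOXD10 was called. HOXD9 also enters the counts and medians of groups 8 to 10. HOXB had 1 higher and 3 lower of 8 in LETS1 cells, and 1 higher and 4 lower of 8 in Co.vec cells.

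The tested members called in no comparison numbered 16 and included HOXA5, HOXA6, HOXA7, HOXA9, HOXA11, HOXA13, HOXB2, HOXB6, HOXB7, HOXC4, HOXC6, HOXC11, HOXC13, HOXD4 and HOXD8. They include the lung gene HOXA5 and both other highly placed members of group 13, HOXA13 and HOXC13. Among the low ones, HOXA6 had 6 to 19 fragments per library, HOXB2 had 4 to 19 and HOXD4 had 2 to 14.

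Few HOX genes were called between LETS1 and Co.vec cells, at shares near those of all genes in buffer. In buffer, 2 of 29 members were higher in LETS1 cells than in Co.vec cells, HOXB8 and HOXD10 (6.90%, against 8.57% of all genes tested), and 2 were lower, HOXB3 and HOXB13 (6.90%, against 6.56%). With TGF-β on both, HOXB8 alone was higher (3.45%, against 7.58%) and 0 were lower (0%, against 6.5%), with 4 members at an unadjusted edgeR p under 0.05 and 1 called by DESeq2. The median log2 fold change of the tested members was 0.05 with TGF-β and -0.02 in buffer, and that of all genes was -0.0004 and 0.01 in the same order.

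**Figure D4:**
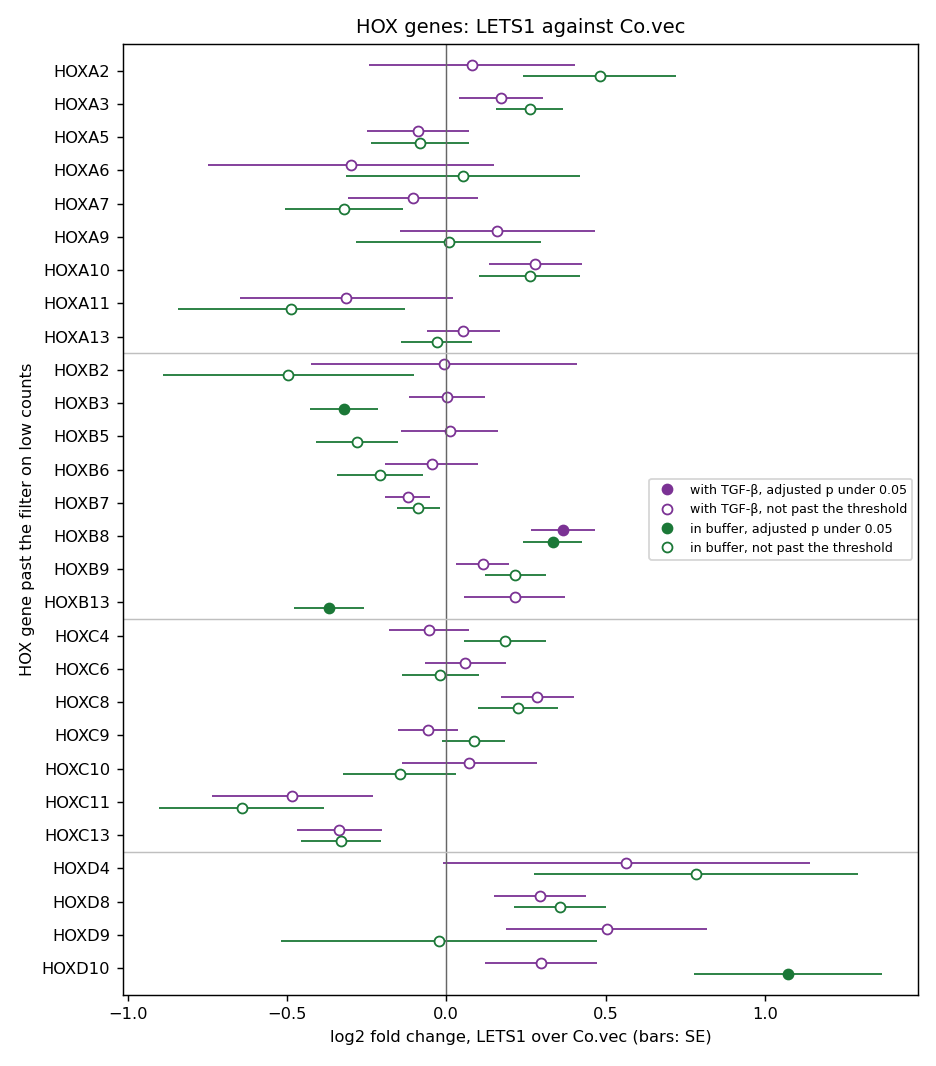
Log2 fold change of LETS1 over Co.vec for 28 of the 29 HOX genes past the filter, with TGF-β (purple) and in buffer (green), with bars of 1 SE; filled points have an edgeR adjusted p under 0.05. HOXB8 is filled to the right in both conditions, and HOXD10 (right), HOXB3 and HOXB13 (left) are filled in buffer.

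HOXB8 was the member that passed in both conditions. In LETS1 cells given TGF-β it had 10.9, 11.1 and 10.4 CPM, against 7.66, 8.14 and 9.34 CPM in Co.vec cells given TGF-β. In buffer, LETS1 cells had 12.01, 14.3 and 12.9 CPM, against 10.0, 10.2 and 10.9 CPM in Co.vec cells. No library of LETS1 cells fell into the range of the matching Co.vec group. For LETS1 over Co.vec the log2 fold change was 0.37 with TGF-β (SE 0.10, edgeR adjusted p = 0.00849) and 0.33 in buffer (SE 0.09, edgeR adjusted p = 0.00907). The call with TGF-β ended without Co.vec TGF-β replicate 1 (adjusted p = 0.0726, range 0.00293 to 0.0726). The call in buffer ended without LETS1 buffer replicate 2 (adjusted p = 0.0951) and under DESeq2 (0.0521), within a range of 0.00603 to 0.0951.

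HOXD10 in buffer had 1.51, 0.883 and 1.07 CPM in LETS1 cells, against 0.593, 0.347 and 0.701 CPM in Co.vec cells, without overlap. It was 2.105-fold higher in LETS1 cells (log2 1.07, SE 0.29, edgeR adjusted p = 0.00895). With TGF-β on both the log2 fold change was 0.30 (SE 0.18, edgeR adjusted p = 0.293), although all LETS1 libraries lay above all Co.vec libraries there too. The buffer call ended without LETS1 buffer replicate 1 (adjusted p = 0.0984) or Co.vec buffer replicate 2 (0.0888), each time with a log2 fold change of 0.83, within a range of 0.00527 to 0.0984.

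HOXB13 in buffer had 8.35, 6.23 and 7.76 CPM in LETS1 cells, against 9.39, 9.02 and 10.5 CPM in Co.vec cells, so that every LETS1 library was lower. Its log2 fold change was -0.37 (SE 0.11, edgeR adjusted p = 0.0165), and with TGF-β on both it was 0.22 (SE 0.16, edgeR adjusted p = 0.423) with overlapping groups. The buffer call ended without LETS1 buffer replicate 2 (adjusted p = 0.161) or Co.vec buffer replicate 3 (0.113) and under DESeq2 (0.104), within a range of 0.00911 to 0.161. HOXB3 in buffer had 6.15, 6.18 and 6.495 CPM in LETS1 cells, against 7.17, 8.23 and 8.12 CPM in Co.vec cells, again without overlap (log2 fold change -0.32, SE 0.11, edgeR adjusted p = 0.0360). The HOXB3 call ended without any 1 of the 3 LETS1 buffer libraries or Co.vec buffer replicates 2 and 3 (adjusted p = 0.0621 to 0.144), under DESeq2 (0.167) and without the filter on low counts (0.0623). Each HOXB3 value kept its sign.

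Several members not called between LETS1 and Co.vec cells showed like values with LETS1 in both conditions, and 3 of them are given with their tests. The log2 fold changes of HOXA10 (0.28 with TGF-β and 0.26 in buffer) and HOXC8 (0.29 and 0.23) were also alike and not called. HOXC13 had log2 fold changes of -0.34 with TGF-β and -0.33 in buffer (edgeR adjusted p = 0.0903 and 0.0696), HOXC11 of -0.48 and -0.64 (edgeR adjusted p = 0.224 and 0.0944), and HOXD8 of 0.29 and 0.36 (edgeR adjusted p = 0.186 and 0.0924). HOXC13 passed with TGF-β when Co.vec TGF-β replicate 2 was left out (adjusted p = 0.0143). It passed in buffer without Co.vec TGF-β replicate 2 (0.0452) or 3 (0.0431) and when the 6 buffer libraries were fitted alone (0.0394). The ranges over the alternatives were 0.0143 to 0.464 with TGF-β and 0.0394 to 0.225 in buffer.

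Whether LETS1 altered the response of a HOX gene to TGF-β was tested directly, as the response in LETS1 cells minus that in Co.vec cells. The test called 0 of 29 members higher and 0 lower, against 0.0803% and 0.599% of all genes, with 2 members at an unadjusted edgeR p under 0.05 and 0 called by DESeq2. The pair was HOXB13, at 0.58 on the log2 scale (SE 0.19, edgeR adjusted p = 0.259), and HOXD10, at -0.78 (SE 0.35, edgeR adjusted p = 0.560). HOXB3 stood at 0.32 (SE 0.16, edgeR adjusted p = 0.642) and HOXB5 at 0.29 (SE 0.20, edgeR adjusted p = 0.815). A difference in response between the populations was therefore not shown for any member, including those called in 1 population alone.

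Partners and regulators of HOX genes were read from lists of named genes. Of 8 tested TALE cofactors, 2 rose and 3 fell with TGF-β in each population. Of all genes tested, 19.7% rose and 19.1% fell in LETS1 cells, and 21.1% rose and 18.6% fell in Co.vec cells. MEIS2 averaged 7.77 ± 0.979 CPM in LETS1 cells given TGF-β, against 13.5 ± 0.453 CPM in LETS1 cells in buffer (SD, n = 3 each; log2 -0.79, edgeR adjusted p = 3.2e-08). In Co.vec cells MEIS2 averaged 8.87 ± 1.41 CPM with TGF-β, against 17.9 ± 0.459 CPM in buffer (SD, n = 3 each; log2 -1.01, edgeR adjusted p = 1.7e-11). PBX2 fell by 0.38 on the log2 scale in each population. PBX3 and MEIS3 rose, MEIS3 by 0.29 in each population.

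**Figure D5:**
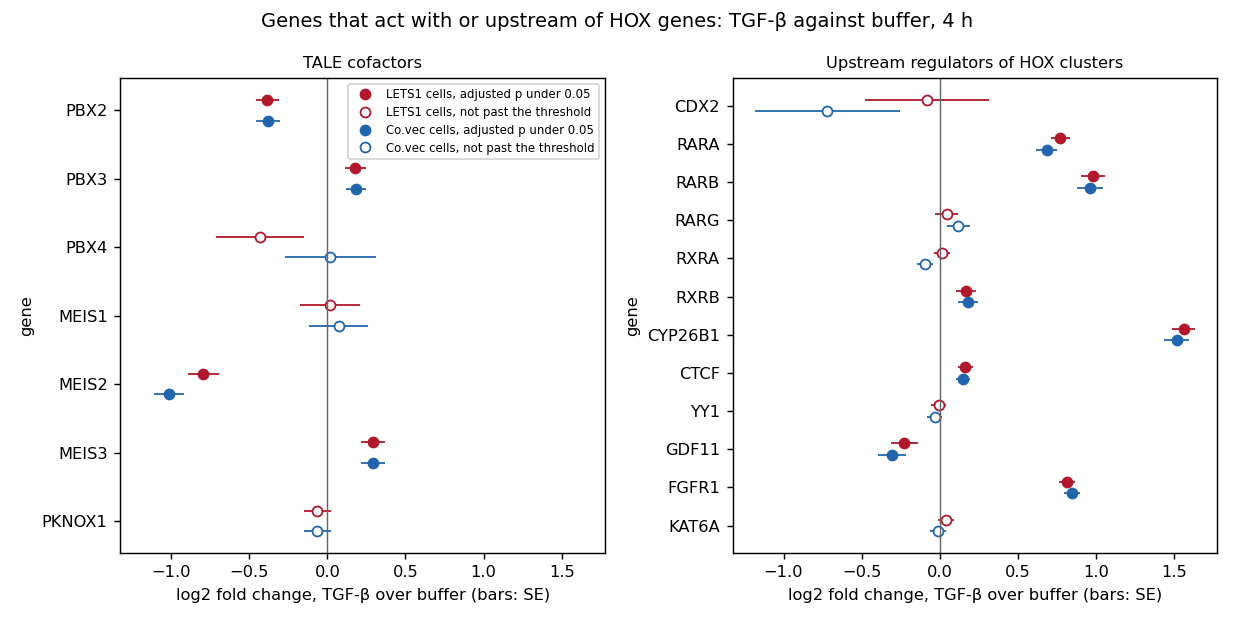
Log2 fold change of TGF-β over buffer at 4 h for tested TALE cofactors (left, not all shown) and upstream regulators of the HOX clusters (right), in LETS1 cells (red) and Co.vec cells (blue), with bars of 1 SE; filled points have an edgeR adjusted p under 0.05. MEIS2 and PBX2 lie to the left in both populations, and CYP26B1, RARB, FGFR1 and RARA to the right.

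Of 12 tested upstream regulators, 6 rose and 1 fell with TGF-β in each population, against 19.7% and 19.1% of all genes in LETS1 cells and 21.1% and 18.6% in Co.vec cells. CYP26B1, which breaks down retinoic acid, rose by 1.56 in LETS1 cells and 1.52 in Co.vec cells (log2; edgeR adjusted p = 2.5e-20 and 4.9e-19). The retinoic acid receptor genes RARB and RARA rose as well, RARB by 0.98 in LETS1 cells and 0.96 in Co.vec cells. FGFR1, a fibroblast growth factor receptor, rose by 0.82 in LETS1 cells and 0.85 in Co.vec cells. GDF11, a ligand that sets posterior HOX expression in the mouse trunk, fell by 0.23 in LETS1 cells and by 0.31 in Co.vec cells.

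Of 30 tested Polycomb proteins, 7 rose and 7 fell in LETS1 cells (all genes 19.7% and 19.1%), and 6 rose and 5 fell in Co.vec cells (all genes 21.1% and 18.6%). PHC2 rose by 1.09 in LETS1 cells and 0.96 in Co.vec cells, and JARID2, a subunit that helps place the repressive complex, by 0.96 and 1.03. Of 17 Trithorax and MLL proteins, 5 rose and 2 fell in LETS1 cells, and 6 rose and 2 fell in Co.vec cells. KDM6B, which removes the repressive Polycomb mark, rose to 64.8 ± 4.18 CPM in LETS1 cells given TGF-β, against 20.5 ± 1.33 CPM in LETS1 cells in buffer (log2 1.66, edgeR adjusted p = 2.4e-22). In Co.vec cells KDM6B averaged 54.5 ± 5.16 CPM with TGF-β, against 18.9 ± 0.694 CPM in buffer (log2 1.52, edgeR adjusted p = 8.4e-21). Of 10 tested genes that flank the clusters, 0 rose and 4 fell in each population, beside the same shares of all genes. TTLL6 and CALCOCO2 beyond HOXB13 and CBX5 beyond HOXC4 fell in each.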

How the data were processed

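RNA of A549 cells was measured in 12 libraries, and groups were read from the labels. The authors deposited a table of raw counts with 60676 gene rows, beside 5 rows of fragments assigned to no gene, which held 18.9% to 20.0% of all fragments and were left out. Per the submitters' processing notes, reads were handled with FastQC, cutadapt 2.10, STAR 2.7.5a and HTSeq 0.12.4 on GRCh38. Which annotation release and strand setting the counting used is not given in the sources at hand. Lengths, coordinates and overlaps came from GENCODE 29, which holds 58503 of the gene ids and all 39 members.

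edgeR 4.0.16 (R 4.3.3) was used with filterByExpr at a minimum count of 10, TMM scaling and a robust quasi-likelihood fit of 4 group means to all 12 libraries. Tests covered 16192 genes, with Benjamini-Hochberg adjustment over all of them per contrast, and a call was an adjusted p under 0.05. The SE was taken from the fold change and its F value. The code was tested on simulated data. FPKM is TMM-scaled CPM per kilobase of exon. Values in every library are given for members called in at least 1 contrast and for the 6 highest members, and other members are given by range. From other lists, up to 4 called genes of largest change are named, beside PBX3 and GDF11 and the markers of cell types, which were chosen after their values were seen, as were the uncalled members HOXC11, HOXC13 and HOXD8. A few genes, 1 member among them, enter the counts but are not reported by name here. Members and lists were chosen with earlier results of these data known. Counting errors alone underlie the floor of 3 fragments.

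The alternatives tried were DESeq2's RLE scaling within edgeR, all genes without a filter, a replicate block, leaving out each library, the 6 libraries compared alone, DESeq2 1.42.0, a fold of at least 1.5, exon bases of no other gene, and cluster sums over members past the filter.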

Additional observations from a re-analysis of the deposited data

How the results depend on the processing

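Of 28 calls of a HOX gene in a contrast, 14 held in each of the 17 refits and 14 were lost in at least 1, without a change of sign in any of the 28. The cause of these changes was not tested. In buffer, the 2 members higher with LETS1 became 1 under DESeq2 and 1 at a fold of at least 1.5, and leaving out 1 library gave 1 to 3. The 2 lower became 1 without the filter on low counts and 0 under DESeq2 and at a fold of at least 1.5, and leaving out 1 library gave 0 to 3. With TGF-β, the 1 higher with LETS1 became 0 at a fold of at least 1.5, and leaving out 1 library gave 0 to 2 higher (2 without LETS1 TGF-β replicate 2) and 0 to 1 lower (1 without Co.vec TGF-β replicate 2). For TGF-β in LETS1 cells, the 6 higher became 3 at a fold of at least 1.5, the 5 lower became 3 under DESeq2 and at that fold, and leaving out 1 library gave 3 to 6 lower. For TGF-β in Co.vec cells the 5 higher became 3 at that fold. Leaving out 1 library gave HOXB7 log2 responses of -0.0941 to 0.0101 in LETS1 cells, above 0 without LETS1 buffer replicate 2, and of -0.0772 to 0.0679 in Co.vec cells, above 0 without Co.vec TGF-β replicate 3 (0.02) or Co.vec buffer replicate 3, with no call in any. The summed HOXD level of LETS1 cells given TGF-β was 3.74 FPKM over members past the filter, against 3.91 FPKM over all members. Over all genes, a fold of at least 1.5 left 454 higher and 293 lower of 1387 and 1062 for LETS1 in buffer, 375 and 271 of 1227 and 1052 for LETS1 with TGF-β, 1130 and 918 of 3187 and 3085 for TGF-β in LETS1 cells, 1278 and 807 of 3416 and 3011 for TGF-β in Co.vec cells, and 1 and 34 of 13 and 97 for the difference in response. The 13 became 28 without the filter, 8 without LETS1 buffer replicate 3 and 21 without Co.vec TGF-β replicate 3.

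Replicate numbers did not pair the libraries: 0 of 18 pairs of same-numbered libraries had residuals correlated above 0.1 (from -0.0935 to 0.0547). With a replicate block, 4 members in place of 6 were higher with TGF-β in LETS1 cells, where HOXA10 (edgeR adjusted p = 0.0554) and HOXC9 (edgeR adjusted p = 0.0504) were lost, and the other counts of HOX genes did not move. HOXA6, HOXB2 and HOXD4 had at most 19, 19 and 14 fragments in any library, and the SE of their log2 fold changes was 0.37 to 0.45, 0.39 to 0.42 and 0.49 to 0.60 in the same order. Without the filter on low counts, HOXB3 with LETS1 in buffer (edgeR adjusted p = 0.0623), HOXA10 (0.0669) and HOXB8 (0.0526) with TGF-β in LETS1 cells, and HOXA2 with TGF-β in Co.vec cells (0.0612) missed the threshold.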

Other observations

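With LETS1 in buffer, 0 of 8 TALE cofactors were higher and 2 lower, 1 of 30 Polycomb proteins higher and 1 lower, 1 of 17 Trithorax and MLL proteins higher and 1 lower, and 2 of 12 upstream regulators higher and 0 lower, against 8.57% and 6.56% of all genes tested. MEIS2 averaged 13.5 ± 0.453 CPM in LETS1 cells and 17.9 ± 0.459 CPM in Co.vec cells in buffer (SD, n = 3 each; log2 -0.41, edgeR adjusted p = 0.000713). With TGF-β on both, 0 of 8 TALE cofactors were called. Of 30 Polycomb proteins 1 was higher and 1 lower, and of 17 Trithorax and MLL proteins 1 was higher and 0 lower. Of 12 upstream regulators 4 were higher (RARA, RARB, CYP26B1 and GDF11) and 0 lower. The shares of all genes tested were 7.58% higher and 6.5% lower. CBX2, a Polycomb protein, was lower in LETS1 cells in both conditions, at -0.33 with TGF-β and -0.29 in buffer on the log2 scale (edgeR adjusted p = 8.9e-05 and 0.000475). RARB was higher, by 0.44 with TGF-β and 0.41 in buffer, and CYP26B1 by 0.33 with TGF-β and 0.28 in buffer. The keratin KRT19 was lower in LETS1 cells, at 101 ± 5.42 CPM against 163 ± 10.97 CPM in Co.vec cells with TGF-β, and at 103 ± 3.70 CPM against 177 ± 7.39 CPM in Co.vec cells in buffer.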
